A study of Mus musculus with 7 samples.

Results

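A set of 10 imprinted genes was followed across the cell types of the embryonic mouse cortex and between Ash1l mutant and control embryos. They were the 4 genes Meg3, Rian, Mirg and Dlk1 of the Dlk1-Meg3 cluster on chromosome 12, and Peg3, Snrpn, Ndn, Cdkn1c, Grb10 and Igf2 from other imprinted regions. These are 10 of the 23413 gene symbols in the count tables, and all 10 had a row. The set was drawn up around Meg3 because Meg3 was lower in the glutamatergic neurons of mutants in these same embryos. The mutant-control values of Meg3 in all cells and in glutamatergic neurons chose it and are therefore given as a description, without a test.

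Single-cell RNA profiles were collected with Seq-Well, in which cells are caught on barcoded beads in small wells and each transcript is counted through a unique molecular identifier (UMI), from the cortices of 7 embryos of a single litter at E18.5. The 4 mutant embryos (replicates 10, 11, 12 and 17) had the genotype Emx1CreERT2;Ash1lfl/fl, and the 3 control embryos (replicates 14, 15 and 16) had the genotype Ash1lfl/fl, so that every embryo carried floxed Ash1l and only the mutants carried the Cre. The dam received 100 mg/kg tamoxifen at E10.5, so the controls were exposed to the drug too. Ash1l encodes a histone H3 lysine methyltransferase. The Cre is tamoxifen-dependent and driven from Emx1, a gene of dorsal telencephalic progenitors; interneurons and vascular cells arise largely outside that lineage.

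An imprinted gene is transcribed mainly from the allele of a single parent. In the Dlk1-Meg3 cluster, the maternal chromosome expresses the noncoding RNAs Meg3, Rian and Mirg, which lie in the same orientation and are often regarded as parts of a common transcription unit, while the paternal chromosome expresses the protein-coding gene Dlk1. The question put to the data was whether the genes of this cluster differed together, between cell types and between genotypes. The tables do not separate the alleles, so nothing here measures imprinting itself.

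On the mm10 build, Dlk1 spans 109452823 to 109463336 on the plus strand of chromosome 12, followed on that strand by Meg3 (109541001 to 109571726), Rian (109603940 to 109661716) and Mirg (109729764 to 109749460). Rian thus starts 62.9 kb and Mirg 189 kb after the start of Meg3, and Dlk1 starts 88.2 kb before it. Exons of Meg3 overlap Gm26906 on the opposite strand, those of Snrpn overlap Snurf on the same strand, and Igf2 and Cdkn1c each overlap an antisense gene. Whether the counting used strand is not given in the sources used here, so the counts of each such pair cannot be told apart.

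The starts of Meg3 and Rian are shown because the comparison turns on this pair. Each window runs from 250 bases before to 50 bases after the annotated start, from RefSeq on GRCm38.p6, with CG dinucleotides, the sites of most DNA methylation in mammals, in capitals.
Meg3, chr12:109540746-109541045, plus strand: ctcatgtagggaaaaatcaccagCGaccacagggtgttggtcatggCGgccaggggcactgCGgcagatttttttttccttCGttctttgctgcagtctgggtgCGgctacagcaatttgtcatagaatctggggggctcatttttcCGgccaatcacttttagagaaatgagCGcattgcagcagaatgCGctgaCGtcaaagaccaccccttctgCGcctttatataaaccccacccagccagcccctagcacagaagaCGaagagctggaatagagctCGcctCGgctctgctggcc
Rian, chr12:109603695-109603994, plus strand: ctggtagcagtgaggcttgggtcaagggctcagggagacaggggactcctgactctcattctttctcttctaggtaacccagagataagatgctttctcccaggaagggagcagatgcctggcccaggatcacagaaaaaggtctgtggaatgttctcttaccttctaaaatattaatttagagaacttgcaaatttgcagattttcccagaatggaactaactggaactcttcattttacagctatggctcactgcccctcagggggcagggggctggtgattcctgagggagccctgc
The Meg3 window printed held 13 CG dinucleotides and the Rian window 0. A second annotated Meg3 start, not printed, had a window (chr12:109545148-109545447) with 1. Across 32851 windows of the same length the median was 7, 37.9% held at least 13, and 5.43% held none. The Dlk1 window held 9 and the Mirg window 10. The Mirg window (chr12:109734731-109735030) lies inside the Mirg span given above and not at the start of that span. A window was found for 9 of the 10 genes. CG reads the same on both strands, and these counts describe the letters only.

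The noncoding RNAs of the cluster also carry microRNAs, a few of which are printed to show what each transcript holds, with the seed (bases 2 to 8) in capitals. RefSeq entries on the plus strand gave 3 mature microRNAs inside Meg3, 6 inside Rian and 26 inside Mirg.
mmu-miR-770-5p, in Meg3: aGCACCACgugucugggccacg
mmu-miR-370-3p, in Rian: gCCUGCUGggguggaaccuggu
mmu-miR-410-3p, in Mirg: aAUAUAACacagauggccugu
mmu-miR-453, in Mirg: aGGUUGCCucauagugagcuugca
mmu-miR-496a-5p, in Mirg: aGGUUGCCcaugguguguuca
The last 2 share their seed, GGUUGCC, and no other pair among these mature sequences did. The libraries capture polyadenylated RNA, so the values below are of the host transcripts and not of the microRNAs.

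The 7 libraries held 7083225 to 11859209 UMIs. A barcode was kept when it had 500 or more genes and no more than 10% mitochondrial UMIs; 23005 of 50191 were, with a median of 1241.5 to 2133 UMIs per cell. The 4 mutants had a median mitochondrial share of 3.83% ± 0.378 (SD) and the 3 controls one of 4.84% ± 0.786 (SD). An exact two-sided permutation test gave p = 0.0857, where the smallest p that 35 splits allow is 0.0286. Pairs of libraries shared 2 to 6 kept barcodes. Ash1l, in all cells, was 157, 154, 165 and 125 CPM for mutants 10, 11, 12 and 17, against 166, 217 and 207 CPM for controls 14, 15 and 16 (log2 fold change −0.39, SE 0.12; adjusted p = 0.336 by edgeR). The labels do not say which exons are floxed, so Ash1l tags may lie outside the deletion. CPM is UMIs per 1e+06 UMIs, here and below.

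Cell classes were gated with 8 marker genes each, none of them imprinted: a cell was given to a class when at least 2 more of its markers were detected than of any other class. This left 13979 cells (60.8%) ungated, and 58.3% of the glutamatergic cells had a lead of exactly 2. The gates held 5057 glutamatergic neurons, 1047 GABAergic neurons, 1922 radial glia and astroglia, 543 intermediate progenitors (the Eomes-type cells between radial glia and neurons) and 299 Cajal-Retzius cells (early-born neurons of the marginal zone). Smaller gates held 53 mural cells (the pericytes and smooth muscle of vessels), 43 microglia and macrophages, 34 endothelial cells, 22 oligodendrocyte precursors, 4 meningeal fibroblasts and 2 erythroid cells. Genes outside the marker lists, picked after the counts were seen, followed the gates in part. Fabp7, a radial glia gene, was 8672 CPM in the radial glia gate and 114 CPM in glutamatergic neurons. Col4a1, of the vascular basement membrane, was 6829 CPM in mural cells and 14.2 CPM in glutamatergic neurons. The neuronal gene Stmn2 was 1843 CPM in glutamatergic neurons, but still 427 CPM in radial glia and 418 CPM in mural cells. The part of mixed cells or stray RNA in the levels of a class was not tested.

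Meg3 was higher in the neuron gates and in mural cells than in progenitors. Levels by class are plain CPM over all UMIs of the class, as mean ± SD over the 7 embryos. Meg3 was 652 ± 285 CPM in Cajal-Retzius cells, 606 ± 193 CPM in GABAergic neurons and 280 ± 111 CPM in glutamatergic neurons. It was 94.9 ± 58.2 CPM in radial glia and 93.5 ± 33.9 CPM in intermediate progenitors. The glutamatergic gate was mixed: Meg3 was 564 ± 247 CPM in its deep-layer cells and 140 ± 54.1 CPM in its upper-layer cells. The upper-layer level was thus nearer to that of radial glia. Tests between classes took mutants and controls together, so each fold averages over genotypes, with the lower glutamatergic Meg3 of mutants in the baseline. Against glutamatergic neurons, Meg3 was 2.11-fold higher in GABAergic neurons (edgeR with the embryo as a term, adjusted p = 6.19e-12). It was 2.27-fold higher in Cajal-Retzius cells (adjusted p = 2.32e-11). It was 3.05-fold lower in radial glia (adjusted p = 3.65e-17) and 3.13-fold lower in intermediate progenitors (adjusted p = 1.61e-10). Neighbours in this order that did not differ by the test were Cajal-Retzius and GABAergic cells (adjusted p = 0.599) and radial glia and intermediate progenitors (adjusted p = 0.926). Among all 7934 genes tested, 33.5% differed between GABAergic and glutamatergic neurons, 65.9% between radial glia and glutamatergic neurons, 37.6% for intermediate progenitors and 36.4% for Cajal-Retzius cells, so a call between classes was common.

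Rian, the host of many small nucleolar RNAs, had a similar order. It was 182 ± 50.5 CPM in Cajal-Retzius cells, 98.5 ± 36.3 CPM in GABAergic neurons, 59.9 ± 13.1 CPM in glutamatergic neurons, 23.2 ± 7.49 CPM in radial glia and 20.8 ± 16.2 CPM in intermediate progenitors. All 4 differences from glutamatergic neurons passed the test: log2 fold changes of 1.54 in Cajal-Retzius cells (edgeR adjusted p = 7.54e-12), 0.67 in GABAergic neurons (adjusted p = 2.42e-04), −1.41 in radial glia (adjusted p = 1.76e-11) and −1.44 in intermediate progenitors (adjusted p = 1.52e-05). Unlike Meg3, Rian also differed between Cajal-Retzius and GABAergic cells, 1.82-fold higher in the former (adjusted p = 1.07e-04). The difference between the 2 genes in this contrast was not itself tested.

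Over the 35 sums of an embryo and a class, Rian ranked 8 of 7933 genes by its Pearson correlation of log2 CPM with Meg3 (0.86). The 5 genes most like Meg3 were Celf4 (0.89), Nrxn2 (0.89), Fam155a (0.88), Evl (0.88) and Chd5 (0.87). Evl is a gene of chromosome 12 near the cluster that is not known as imprinted. Snrpn ranked 89 (0.77) and Peg3 184 (0.71), while Grb10 had a correlation of −0.73. These are descriptions: the sums of an embryo share a library, and the 5 classes set most of the spread.

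**Figure D1:**
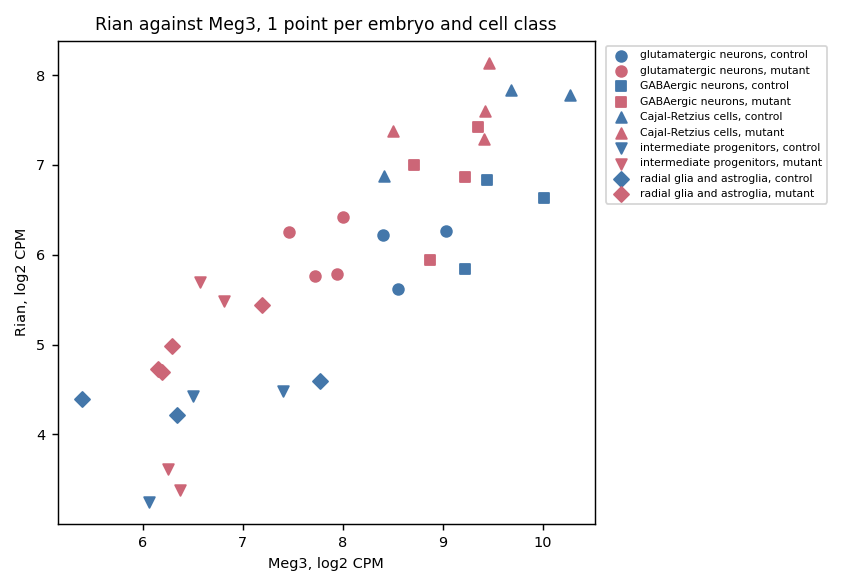
Rian against Meg3, both in log2 CPM, with a point for each of the 35 sums of an embryo and a cell class; shape gives the class and colour the genotype. Cajal-Retzius and GABAergic cells lie at the upper right and progenitors at the lower left, and glutamatergic points of mutants lie to the left of those of controls at a like height.

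Mirg and Dlk1 were near the limit of the data in neurons. Mirg, the host of the largest group of the cluster's microRNAs, was 14.1 ± 6.18 CPM in GABAergic neurons and 3.53 ± 1.58 CPM in glutamatergic neurons, and 215 UMIs were found in all cells together. Dlk1, a transmembrane protein with epidermal growth factor repeats, gave 166 UMIs in all, and was 0.514 ± 0.493 CPM in glutamatergic neurons. Neither passed the filter on low counts in a single class.

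Mural cells held a large share of the Dlk1 and Igf2 transcripts. They were 0.230% of kept cells and carried 74 of the 166 Dlk1 UMIs (44.6%, exact binomial 95% interval 36.9 to 52.5%) and 1014 of the 1769 UMIs of Igf2, the insulin-like growth factor 2 gene (57.3%, interval 55.0 to 59.6%). These intervals cover counting error only. Igf2 in the mural gate was 10827, 5389, 5262 and 13283 CPM in mutants 10, 11, 12 and 17 against 10503, 1228 and 10381 CPM in controls 14, 15 and 16. The gate held 1 to 16 cells per embryo, and the low value in control 15 came from 1 cell. Dlk1 was 1190, 658, 463 and 341 CPM in the same mutants and 364, 439 and 616 CPM in the controls, so the groups overlapped for both genes.

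The other gates of vessels and meninges differed from mural cells. In the 34 endothelial cells, Dlk1 had 0 of 80089 UMIs, which allows up to 37.5 CPM by a limit of 3 counts, and Igf2 had 2 UMIs (24.97 CPM, exact Poisson 95% interval 3.02 to 90.2). The 4 meningeal fibroblasts, from 3 embryos, gave 141 Igf2 UMIs (8896 CPM, interval 7489 to 10492) and 25 UMIs of Cdkn1c (1577 CPM, interval 1021 to 2329). In microglia, 0 of 115402 UMIs were Igf2 or Dlk1, which allows up to 26.0 CPM. Meg3 in mural cells, pooled over embryos, was 1583 CPM (interval 1369 to 1820) and Rian 386 CPM (interval 284 to 511). Mirg was 72.3 CPM (interval 33.1 to 137), so that all 4 genes of the cluster were detected there. These intervals too cover counting error only, and embryos differed by more. Mural Meg3 ran from 526 to 3093 CPM over the 7 embryos (mean 1498 ± 974) and Rian from 87.7 to 1309 CPM (371 ± 426). Fibroblast Cdkn1c ran from 0 to 4770 CPM over its 3 embryos. The mural, endothelial and meningeal gates together held 5 to 24 cells per embryo and reached the minimum of 20 in mutant 11 and control 16 only, so no test between genotypes or classes was made.

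**Figure D2:**
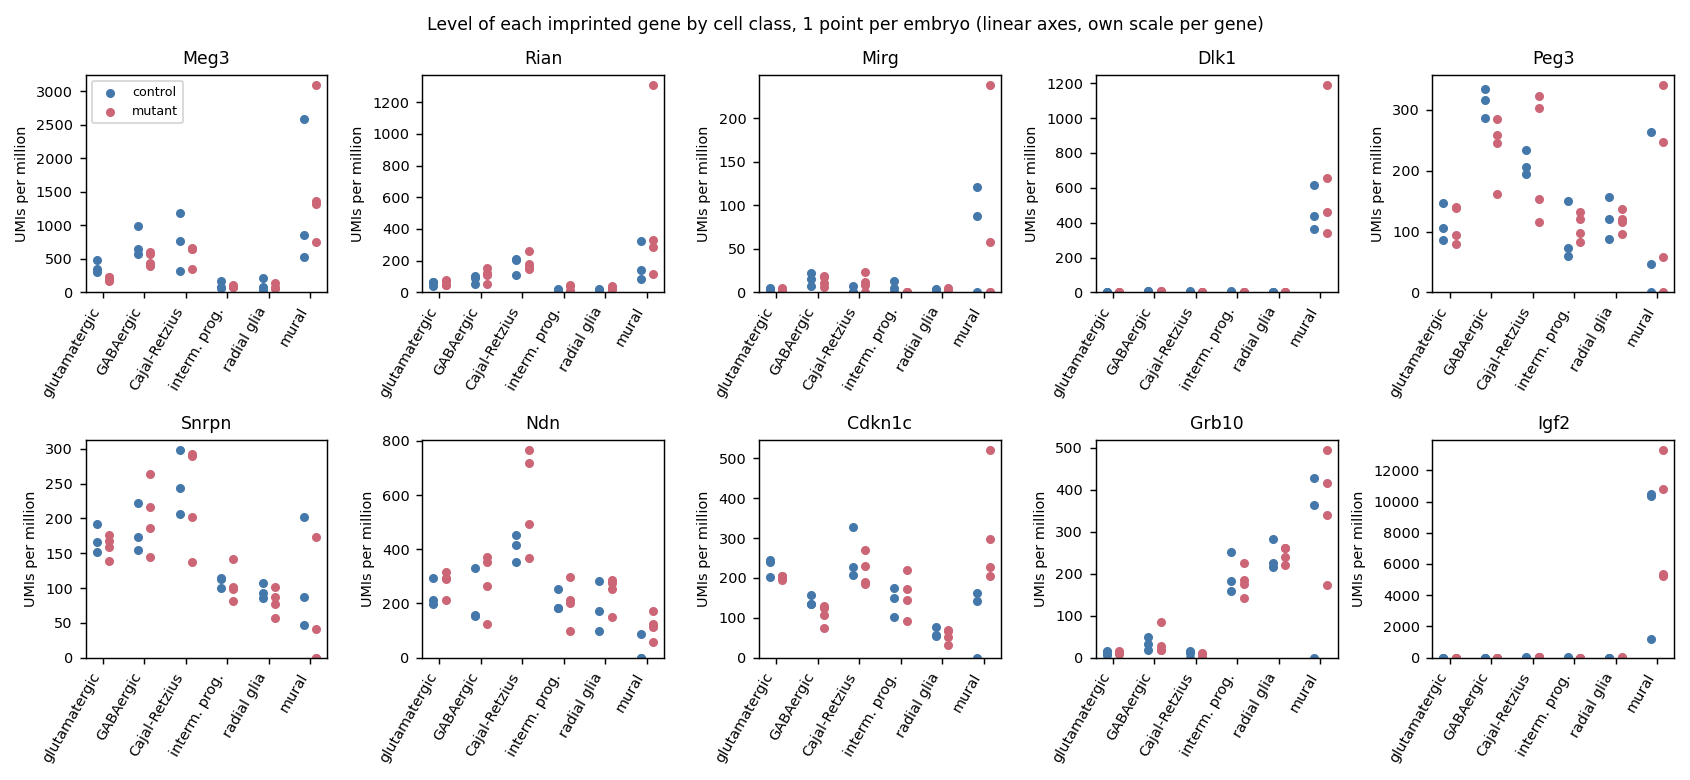
Level of each of the 10 genes (CPM, linear axes with an own scale per gene) in 6 cell classes, with a point per embryo, control and mutant side by side. Dlk1 and Igf2 are near 0 outside the mural gate, which has 1 to 16 cells per embryo, Grb10 is high in progenitors and mural cells, and Meg3 and Rian are higher in neurons than in progenitors.

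Grb10, an adaptor that binds and restrains insulin and insulin-like growth factor receptors, was higher in progenitors than in neurons. It was 244 ± 25.03 CPM in radial glia and 188 ± 37.7 CPM in intermediate progenitors, against 35.7 ± 24.8 CPM in GABAergic and 11.8 ± 3.77 CPM in glutamatergic neurons. The difference from glutamatergic neurons was 19.6-fold in radial glia (edgeR adjusted p = 6.65e-36), 15.1-fold in intermediate progenitors (adjusted p = 6.04e-25) and 3.20-fold in GABAergic neurons (adjusted p = 4.09e-07). Radial glia and intermediate progenitors did not differ by the test (log2 fold change −0.37 in the latter, adjusted p = 0.055). In Cajal-Retzius cells it was 6.56 ± 6.48 CPM, with no call against glutamatergic neurons (adjusted p = 0.301). Among the small gates, which were not tested, Grb10 was not particular to progenitors. It was 316 ± 172 CPM in mural cells and 296 ± 165 CPM in oligodendrocyte precursors, but 102 ± 107 CPM in endothelial cells and 18.2 ± 31.9 CPM in microglia.

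Cdkn1c, which encodes the cyclin-dependent kinase inhibitor p57 that holds cells out of the cycle, followed another order. It was 234 ± 50.4 CPM in Cajal-Retzius cells, 213 ± 20.3 CPM in glutamatergic neurons, 151 ± 44.1 CPM in intermediate progenitors, 124 ± 26.3 CPM in GABAergic neurons and 58.4 ± 14.8 CPM in radial glia. Against glutamatergic neurons it was 3.80-fold lower in radial glia (edgeR adjusted p = 5.81e-25), 1.80-fold lower in GABAergic neurons (adjusted p = 9.01e-09) and 1.46-fold lower in intermediate progenitors (adjusted p = 4.63e-04). Intermediate progenitors were 2.61-fold above radial glia (adjusted p = 2.15e-10). Cajal-Retzius cells and glutamatergic neurons did not differ by the test (adjusted p = 0.637).

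The 3 paternally expressed genes Peg3, Snrpn and Ndn were spread more evenly. Peg3, a zinc finger protein gene, was 2.42-fold higher in GABAergic (269 ± 56.7 CPM) than in glutamatergic neurons (113 ± 28.4 CPM; edgeR adjusted p = 1.80e-15) and 1.84-fold higher in Cajal-Retzius cells (adjusted p = 1.89e-06), with no call in either progenitor class. Snrpn, which encodes a protein of the splicing machinery, was 165 ± 16.8 CPM in glutamatergic neurons and was 1.91-fold lower in radial glia (adjusted p = 1.12e-12), 1.60-fold lower in intermediate progenitors (adjusted p = 1.20e-04) and 1.42-fold higher in Cajal-Retzius cells (adjusted p = 0.00109). Ndn, which encodes necdin, a protein of postmitotic neurons, was 509 ± 167 CPM in Cajal-Retzius cells, 1.95-fold above glutamatergic neurons (259 ± 49.8 CPM; adjusted p = 5.42e-10). It was 1.26-fold lower in radial glia (adjusted p = 0.00224) and 1.35-fold lower in intermediate progenitors (adjusted p = 0.0101). Of the 28 tests of a gene against glutamatergic neurons (7 genes in 4 classes), 22 passed.

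Between genotypes, Meg3 and Rian are first set side by side in glutamatergic neurons. From here on, CPM values are scaled by TMM factors within the comparison. Meg3 was 239, 164, 227 and 198 CPM in mutants 10, 11, 12 and 17 against 313, 488 and 350 CPM in controls 14, 15 and 16. Every mutant lay below every control. The means were 207 ± 33.6 CPM (SD, n = 4) and 384 ± 92.5 CPM (SD, n = 3), a log2 fold change of −0.89 (SE 0.15, as a description). This is the contrast that Meg3 was chosen from; of the 10231 genes tested, 0.088% were called in either direction by edgeR, and 5.95% had all mutants below all controls. Without control 15, the highest, the log2 fold change of Meg3 was −0.68.

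Rian was 77.8, 68.7, 48.8 and 48.8 CPM in the same mutants and 66.6, 69.0 and 43.1 CPM in the controls. The groups overlapped throughout their range. The means were 61.0 ± 14.6 and 59.6 ± 14.3 CPM, a log2 fold change of 0.05 (SE 0.19; edgeR adjusted p = 0.941). Its 95% interval was −0.34 to 0.44. The difference between the genotype effects of Meg3 and Rian was not tested, since the Meg3 value chose the set. The number of Meg3 UMIs per Rian UMI was 3.07, 2.38, 4.65 and 4.05 in mutants 10, 11, 12 and 17 against 4.70, 7.07 and 8.12 in controls 14, 15 and 16, with mutant 12 close to control 14. This ratio contains the value Meg3 was chosen for and is a description too.

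**Figure D3:**
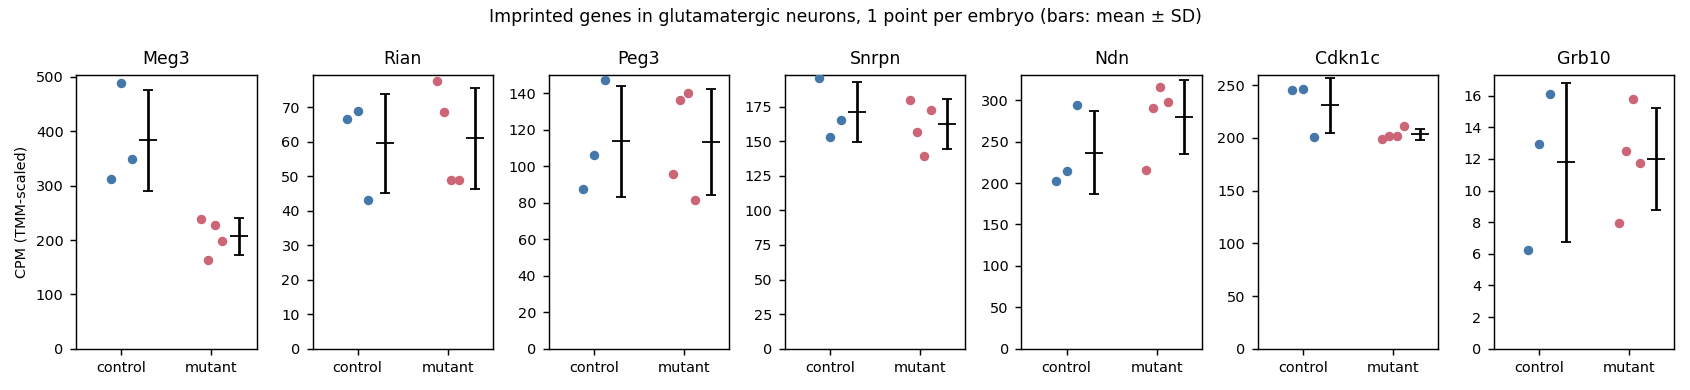
TMM-scaled CPM of the 7 genes that passed the filter on low counts in glutamatergic neurons, with a point per embryo (3 controls, 4 mutants) and bars for mean ± SD; axes start at 0. The genotypes are separate for Meg3 and overlap for Rian, Peg3, Snrpn, Ndn, Cdkn1c and Grb10.

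In single glutamatergic cells thinned to 1000 UMIs each, Meg3 was found in 12.1, 12.7, 13.7 and 13.4% of cells in mutants 10, 11, 12 and 17 and in 16.6, 28.4 and 19.1% in controls 14, 15 and 16. Thinning left out 418 of 2549 mutant and 334 of 2508 control cells with fewer UMIs. Unthinned, the shares were 31.5, 20.1, 21.8 and 24.3% in mutants and 32.3, 38.1 and 28.0% in controls, and the genotypes overlapped. The glutamatergic cells of mutant 10 and control 14 had the highest medians, 2711 and 3185.5 UMIs per cell. Control 15, with the highest share, had 1782. The part of depth in these shares was not tested. UMIs per Meg3-positive thinned cell were 1.27 to 1.39 in mutants and 1.55 to 1.64 in controls. Radial glia, the class with low Meg3, had a Meg3 UMI in 2.43 to 7.36% of thinned cells of mutants and 1.26 to 10.6% of controls. Rian was found in 3.77 to 6.63% of thinned glutamatergic cells of mutants and 3.83 to 5.26% of controls. Within each of the 7 embryos, Rian was found more often in glutamatergic cells with a Meg3 UMI (6.47 to 13.4%) than in those without (3.03 to 5.64%). This gate mixes layers that differ in both genes. In upper-layer cells alone the share was higher beside Meg3 in all 7 embryos (5.88 to 13.3% against 1.52 to 3.90%). In deep-layer cells it was higher in 6 of 7, by less (in mutant 12, 10.9 against 9.18%), and lower in mutant 10 (10.8% in cells without Meg3). In GABAergic neurons it was lower beside Meg3 in mutants 11, 12 and 17. The cells with Meg3 numbered 17 to 74 per embryo in the upper-layer gate and 20 to 97 in the deep-layer gate. In the GABAergic gate they numbered 15 to 73, so the shares in each of these gates rest on few cells.

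The layer gates hold part of the same glutamatergic cells, so their Meg3 values are a description too. In deep-layer neurons, Meg3 was 485, 304, 515 and 327 CPM in mutants 10, 11, 12 and 17 against 658, 1013 and 759 CPM in controls 14, 15 and 16, a log2 fold change of −0.99 (SE 0.17) with no overlap. The share of all genes with every mutant below every control was not counted in this gate. It was 5.95% in the whole glutamatergic gate. In upper-layer neurons it was 140, 112, 87.0 and 110 CPM in the mutants and 132, 255 and 154 CPM in the controls (log2 fold change −0.66, SE 0.19), and mutant 10 lay above control 14. Rian had log2 fold changes of 0.09 (edgeR adjusted p = 0.926) in deep-layer and −0.10 (adjusted p = 0.912) in upper-layer neurons. The deep-layer share of the gate, in which Meg3 was higher than in the upper-layer gate in every embryo, was 22.2% ± 3.04 over mutants and 24.8% ± 1.68 over controls (SD, n = 4 and 3; p = 0.286 by the exact permutation test).

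**Figure D4:**
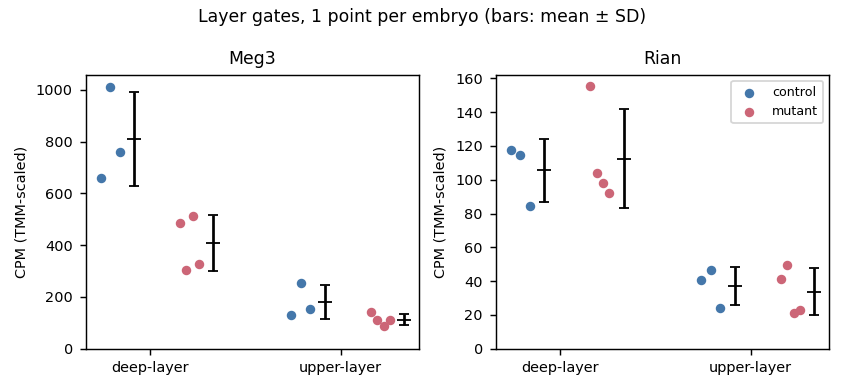
TMM-scaled CPM of Meg3 and Rian in deep-layer and upper-layer glutamatergic neurons, with a point per embryo (control and mutant side by side) and bars for mean ± SD. Both genes are higher in the deep-layer gate, and the genotypes are separate only for Meg3 there.

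Meg3 RNA stays largely in the nucleus, and 2 of the listed RNAs that do so as well were tested in glutamatergic neurons, without a call. Malat1 was 958, 908, 1955 and 592 CPM in mutants 10, 11, 12 and 17 against 1013, 2380 and 1595 CPM in controls 14, 15 and 16 (log2 fold change −0.59, SE 0.28; edgeR adjusted p = 0.387). Miat was 144, 128, 183 and 101 CPM in the mutants and 210, 238 and 147 CPM in the controls (−0.51, SE 0.17; adjusted p = 0.235). Control 15 had the highest value of all 3 RNAs, and the genotypes overlapped for Malat1 and Miat. In all cells, the median log2 fold change of the 4 listed nuclear RNAs tested was −0.35, with Neat1 at 0.51 (adjusted p = 0.558) and Snhg11 at −0.88 (adjusted p = 0.330), beside a median over all genes of 0.00289. The part of nuclear RNA content in the Meg3 values was not tested.

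Outside glutamatergic neurons, Meg3 had no call, in the same embryos that it was chosen from. In GABAergic neurons it was 669, 418, 614 and 477 CPM in mutants 10, 11, 12 and 17 against 699, 1053 and 601 CPM in controls 14, 15 and 16 (log2 fold change −0.51, SE 0.19; edgeR adjusted p = 0.672), and control 16 lay below mutants 10 and 12. In radial glia it was 73.5, 69.0, 139 and 68.1 CPM against 38.0, 214 and 78.7 CPM (−0.33, SE 0.32; adjusted p = 0.900). In intermediate progenitors it was 107, 85.6, 96.3 and 126 CPM against 72.0, 193 and 102 CPM (−0.19, SE 0.34; adjusted p = 0.973). Control 15 was the highest embryo in all 3 classes: without it the log2 fold change was −0.24 in GABAergic neurons, 0.59 in radial glia and 0.25 in intermediate progenitors. The genotype difference of Meg3 in GABAergic neurons minus that in glutamatergic neurons was 0.35 (SE 0.14, log2), given without a test.

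Rian had no call in radial glia or GABAergic neurons, and did not pass the filter on low counts in intermediate progenitors. In radial glia it was 27.9, 22.4, 38.9 and 23.4 CPM in mutants 10, 11, 12 and 17 against 17.4, 21.0 and 15.5 CPM in controls 14, 15 and 16. All mutants lay above all controls, as did 3.32% of the 9343 genes tested there, and the log2 fold change was 0.68 (SE 0.33; edgeR adjusted p = 0.794). In GABAergic neurons it was 172, 125, 117 and 59.6 CPM against 112, 98.4 and 54.6 CPM (0.45, SE 0.28; adjusted p = 0.811), and the groups overlapped. The difference of the Rian genotype effect between GABAergic and glutamatergic neurons was 0.40 (SE 0.27; edgeR adjusted p = 0.968), a test that called 0.0113% of 8840 genes.

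Summed over all cells, all 4 genes of the cluster could be set side by side. Meg3 was 226 ± 32.9 CPM in mutants and 346 ± 110 CPM in controls (log2 fold change −0.61, SE 0.17, no test), with mutant 10 (259 CPM) above control 16 (251 CPM). Rian was 64.1 ± 12.2 and 53.2 ± 13.5 CPM (0.27, SE 0.18; edgeR adjusted p = 0.596). Mirg was 4.24 ± 1.38 and 4.82 ± 2.21 CPM (−0.17, SE 0.34; adjusted p = 0.900). Dlk1 was 3.81 ± 1.81 and 3.13 ± 0.729 CPM (0.25, SE 0.38; adjusted p = 0.852). Mirg and Dlk1 were both below 5 CPM in both groups, too low to bear a direction. In sums over mixed cells, fewer cells of a type and less RNA per cell cannot be told apart. Of the 12893 genes tested in all cells, 0.0233% were called.

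Igf2 in all cells was 40.2, 46.2, 30.0 and 51.3 CPM in mutants 10, 11, 12 and 17 against 43.7, 9.32 and 40.5 CPM in controls 14, 15 and 16 (log2 fold change 0.42, SE 0.34; edgeR adjusted p = 0.677). Control 15, the low embryo, was also the embryo with 1 mural-gated cell among 3895. Without control 15 the log2 fold change was −0.0017. Mutant 17, however, had the lowest mural-gated share of the mutants (0.0824% of kept cells) and the highest Igf2 of all embryos (51.3 CPM). The part of mural cell number in these values was not tested.

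None of the 9 genes other than Meg3 was called between genotypes in any comparison, by edgeR or by DESeq2. In glutamatergic neurons, where 6 of them could be tested, the log2 fold changes ran from −0.18 for Cdkn1c (203 ± 5.36 against 231 ± 26.3 CPM; edgeR adjusted p = 0.530) to 0.24 for Ndn (280 ± 44.4 against 237 ± 49.8 CPM; adjusted p = 0.523). An unadjusted p under 0.05 was reached by 0 of these 6, beside 12.6% of all genes. In GABAergic neurons, where 0% of 6500 genes were called, Cdkn1c was 81.1, 131, 117 and 139 CPM in mutants 10, 11, 12 and 17 against 145, 143 and 164 CPM in controls 14, 15 and 16. All mutants lay below all controls, as did 3.28% of all genes there (−0.40, SE 0.23; edgeR adjusted p = 0.787). Leaving out Meg3, which was chosen from these same embryos, an unadjusted p under 0.05 was reached there by 0 genes of the set, beside 6.45% of all genes. In radial glia 0.0107% of genes were called and in intermediate progenitors 0%, and an unadjusted p under 0.05 was reached by Rian alone in the former (6.19% of all genes) and by 0 genes of the set in the latter (5.2% of all genes).

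**Figure D5:**
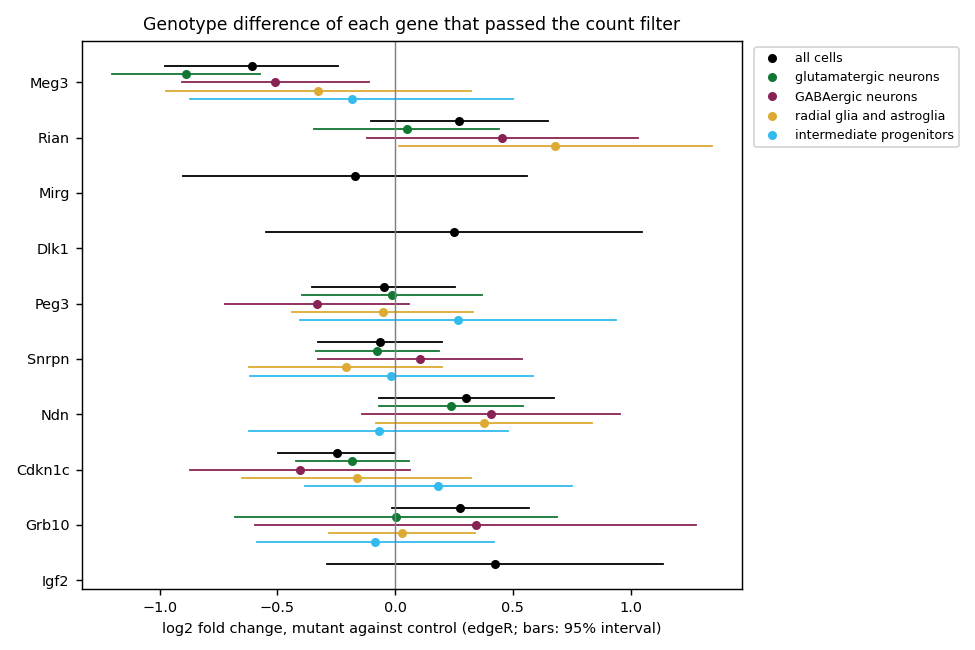
Log2 fold change of mutant against control with its 95% interval (edgeR) for each of the 10 genes in all cells and in 4 cell classes where it passed the filter on low counts. The Meg3 values, −0.89 in glutamatergic neurons, lie left of 0, though the Meg3 intervals in radial glia and intermediate progenitors include 0. The values of Rian lie at or right of 0. Every interval of the genes other than Meg3 and Rian includes 0. Meg3 was chosen from its values in glutamatergic neurons and all cells, so its intervals in those 2 comparisons are no test.

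Other imprinted genes gave no calls either. Of 45 listed, 41 had a row and 22 were tested in glutamatergic neurons, 12 with a positive and 10 with a negative log2 fold change (median 0.016, all genes 0.00064), and 0 were called. Of all genes tested there 0.088% were called, so 0 calls in a list this short say little about its genes. In all cells 29 were tested, 14 positive and 15 negative, with a median of −0.0092 and 0 called, beside 0.0233% of all genes. Of the 14 listed genes of chromosome 12 around the cluster, 12 had a row and 10 were tested in glutamatergic neurons, with a median of −0.064 and 0 called. Evl, the neighbour whose levels across classes were like those of Meg3, was 304 CPM in mutants and 365 CPM in controls there (log2 fold change −0.26, SE 0.12; edgeR adjusted p = 0.387).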

How the data were processed

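The authors deposited a table of UMI counts per library, genes by bead barcodes, as whole numbers that were not normalised. Reads were aligned with STAR to mm10, per the submitters' processing notes; the sources used here name neither the gene annotation, nor how overlapping genes were counted, nor the barcode rule. Gene positions come from an mm10 annotation matched by symbol.

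Kept cells were gated by markers and raw UMIs were summed per embryo and class, with at least 20 cells. No doublet caller was run; the lead of 2 markers leaves mixed cells ungated in part. Sums held 1389510 to 3030478 UMIs per embryo in glutamatergic neurons, 161600 to 391536 in GABAergic neurons and 108344 to 219470 in intermediate progenitors. The embryo was the replicate. The quasi-likelihood test of edgeR 4.0.16 (R 4.3.3; TMM, filterByExpr) was two-sided, with Benjamini-Hochberg adjustment over all genes tested and a threshold of 0.05; DESeq2 1.42.0 was an alternative. Class differences had the embryo as a term and took both genotypes together. Log2 CPM for likeness used a prior count of 2. Glutamatergic counts were simulated with 200 genes changed 2-fold, and 10080 genes passed the filter on low counts. The test recovered 80.9% of the changed genes that passed it, with 8 false calls.

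The genes and lists were chosen with earlier results of these data known. Named were all 10 genes, any listed gene called between genotypes, and the 5 genes most like Meg3; Evl, Malat1, Miat, Neat1 and Snhg11 are named as context, with their values known. The lists were 45 other imprinted genes, 14 chromosome 12 neighbours and 5 nuclear RNAs.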

Additional observations from a re-analysis of the deposited data

Results flagged for a closer look

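Among 37 sets of values of a gene in the 4 mutants, 3 had an embryo far from the others; chance alone does this in about 1 of 20 such sets. Ndn in all cells was 188 CPM in mutant 10 and 301 to 312 CPM in the other mutants. The low level was not particular to that mutant: controls 14, 15 and 16 had 189, 199 and 284 CPM. In glutamatergic neurons Ndn was 215, 290, 316 and 298 CPM in mutants 10, 11, 12 and 17. Controls 14, 15 and 16 had 202, 214 and 294 CPM there. Low and high embryos thus occurred in both genotypes, and the cause was not tested. Grb10 in GABAergic neurons was 92.9 CPM in mutant 12 and 18.7 to 30.4 CPM in the other mutants. Meg3 in radial glia was 139 CPM in mutant 12 and 68.1 to 73.5 CPM in the other mutants.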

How the results depend on the processing

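The log2 fold change of Meg3 in glutamatergic neurons stayed between −1.07 and −0.66 under every alternative, and 0 of the other 9 genes were called between genotypes under any of them. Of 777 gene values under alternatives, 717 kept their direction and side of the threshold. Counts of called genes over the whole table moved more. With DESeq2 they were 21 in all cells, 52 in glutamatergic neurons and 1 in intermediate progenitors, against 3, 9 and 0. Without a filter on low counts they were 165 in all cells, 158 in glutamatergic neurons, 13 in GABAergic neurons, 21 in radial glia and 6 in intermediate progenitors. A gate lead of 3 markers gave 26 in glutamatergic neurons and 3 in intermediate progenitors, and a lead of 1 gave 3 in the latter. Thinning to 1000 UMIs gave 8 in GABAergic neurons and 0 in radial glia, and upper-layer neurons alone gave 2. Leaving out 1 embryo gave 3 to 26 in all cells (26 without mutant 17), 0 to 76 in glutamatergic neurons (0 without mutant 11, 76 without mutant 17), 0 to 4 in GABAergic neurons, 1 to 7 in radial glia and 0 to 2 in intermediate progenitors. The causes were not tested.

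Uncalled values near 0 changed sign, all as log2 fold changes. With a lead of 1 marker these were Peg3 in glutamatergic neurons (0.021) and radial glia (0.0033), Snrpn (0.18), Ndn (0.19), Cdkn1c (−0.15) and Grb10 (0.0070) in intermediate progenitors, and Cdkn1c in Cajal-Retzius against glutamatergic cells (−0.064). With a lead of 3 they were Rian in glutamatergic neurons (−0.030), Peg3 in GABAergic neurons (0.086), and Peg3 (0.038), Cdkn1c (0.053) and Grb10 (−0.048) in radial glia. After thinning they were Snrpn in all cells (0.018), glutamatergic neurons (0.038) and radial glia (0.29), Cdkn1c in radial glia (0.034), and Ndn (0.36), Cdkn1c (−0.14) and Grb10 (0.17) in intermediate progenitors. Without a filter Grb10 in glutamatergic neurons was −0.022. Cdkn1c was 0.13 in deep-layer neurons and Rian −0.10 in upper-layer neurons.

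Leaving out 1 embryo turned further uncalled values. The ranges in all cells were −0.17 to 0.065 for Snrpn, −0.45 to 0.25 for Mirg, −0.18 to 0.051 for Peg3 and −0.0017 to 0.73 for Igf2. In glutamatergic neurons they were −0.15 to 0.16 for Rian, −0.17 to 0.22 for Peg3, −0.31 to 0.33 for Grb10 and −0.15 to 0.031 for Snrpn, and in GABAergic neurons −0.019 to 0.29 for Snrpn. In radial glia they were −0.31 to 0.041 for Cdkn1c, −0.71 to 0.59 for Meg3, −0.050 to 0.16 for Grb10 and −0.23 to 0.16 for Peg3. In intermediate progenitors they were −0.21 to 0.11 for Snrpn, −0.32 to 0.20 for Ndn, −0.24 to 0.14 for Grb10 and −0.42 to 0.25 for Meg3, and for Peg3 against glutamatergic neurons −0.32 to 0.026. Of the 22 class differences called, 21 to 22 passed without 1 embryo; Ndn in intermediate progenitors lost its call without mutant 10 (adjusted p = 0.0765), and it and Cdkn1c lost theirs with a lead of 3. No paired analysis was possible because the groups share no replicate number.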
